A study of Mus musculus with 6 samples.

Results

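The inhibitory checkpoint genes Pdcd1, Ctla4, Btla, Lag3, Havcr2, Tigit, Cd96, Cd160 and Cd5, together with the ligand gene Cd274, were chosen by symbol, and all 10 were found among the 23420 rows of the deposited table. Poly(A) RNA had been sequenced from 6 libraries of mouse CD4 T cells of C57BL/6 background, cultured for 2 days toward pathogenic Th17 cells on plate-bound anti-CD3 and anti-CD28 with the cytokines IL-1b, IL-6 and IL-23. The 3 Stat3C libraries (genotype Stat3CSTOPfl/fl CD4-Cre) carried a hyperactive STAT3, a cytokine-driven transcription factor, whose expression begins once Cre removes a stop sequence. The 3 Stim1KO Stat3C libraries (Stim1fl/fl Stat3CSTOPfl/fl CD4-Cre) carried the same allele and had in addition lost the floxed part of Stim1, the calcium sensor of the endoplasmic reticulum that opens store-operated calcium channels. Both groups therefore share active STAT3 and the Cre transgene, Cre was driven from Cd4 regulatory sequence, and no group with normal STAT3 is part of the comparison. The sources used here give neither the age of the mice nor whether replicates came from separate animals, so p-values reflect only how far these libraries spread, which may be technical.

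Checkpoint receptors are surface proteins that activated T cells display and that dampen signalling through the T cell receptor and CD28 when they meet their ligands. Many carry short tyrosine motifs in the cytoplasmic tail that recruit phosphatases, whereas CTLA-4 acts largely by taking the shared ligands CD80 and CD86 away from CD28. Transcription of several of them is known to be induced by T cell receptor signals through calcium and NFAT, and CTLA-4 and TIGIT are abundant in regulatory T cells. The comparison asks how RNA of these genes differed when Stim1 was deleted in cells with active STAT3.

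Values below are normalised read counts, that is, reads scaled for library depth. Each log2 difference subtracts the Stat3C mean from the Stim1KO Stat3C mean of log2(value + 1), a scale that understates changes of low genes. Between 16009755 and 51347367 reads per library were recovered from the table. Stim1 stood at 1931 to 1999 in Stat3C and at 687 to 811 in Stim1KO Stat3C (log2 -1.37, SE 0.08, limma adjusted p = 0.000287), and its count cannot tell intact from truncated transcript. Stat3C replicate 2 stood apart from the other libraries: it lay farthest from the rest of its group for 51.4% of the genes tested and for 8 of the 10 checkpoint genes, and genes of myeloid cells summed to 916 there against 93.5 and 110.5 in the other Stat3C libraries and 39.7 to 42.8 in Stim1KO Stat3C. Most of the 916 was H2-Aa (741, against 53.2 and 92.1 in the other Stat3C libraries). Each other myeloid gene measured was also highest in replicate 2 within Stat3C. Xist was between 8362 and 11549 in replicate 3 of both groups and at most 3.53 elsewhere, a split that both groups share. T cell genes were abundant (7 genes summing to 41938 to 43338 in Stat3C and 51856 to 57442 in Stim1KO Stat3C), and the Th17 cytokine genes Il17a (2593 to 3919 in Stat3C, 409 to 586 in Stim1KO Stat3C) and Il17f (9805 to 12993, against 2874 to 3532) fell. Markers of natural killer cells (5 genes, 1 tested, none called, summing to 39.7 to 93.5) and the gamma-delta T cell gene Sox13 (6.85 to 37.3, the 1 of 4 such genes found) were low throughout, and Klrb1c was at 0 in all Stim1KO Stat3C libraries.

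The promoters of the 3 genes that rose in Stim1KO Stat3C are printed so that the letters before genes that rose together can be compared. Each run is the 250 bases before the RefSeq start of transcription on GRCm38.p6, read 5′ to 3′ on the gene's own strand, for Havcr2 (chr11:46454681-46454930, plus strand), Ctla4 (chr1:60908775-60909024, plus strand) and Cd5 (chr19:10738975-10739224, minus strand). Capitals mark matches, on either strand, to the core of the NFAT motif (GGAAA), the AP-1 motif (TGANTCA), the STAT motif (TTCNNNGAA) or the T-box motif (GGTGNGA), where matches to the NFAT and STAT motifs may share bases. The Ctla4 window lies inside the span that GENCODE gives the gene (chr1:60887000-60915832), which begins further upstream than the RefSeq start used here.
Havcr2: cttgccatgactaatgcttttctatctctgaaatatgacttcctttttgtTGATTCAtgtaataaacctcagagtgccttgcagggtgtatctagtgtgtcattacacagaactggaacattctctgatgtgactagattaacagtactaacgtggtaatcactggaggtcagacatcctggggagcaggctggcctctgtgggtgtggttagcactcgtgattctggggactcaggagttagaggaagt
Ctla4: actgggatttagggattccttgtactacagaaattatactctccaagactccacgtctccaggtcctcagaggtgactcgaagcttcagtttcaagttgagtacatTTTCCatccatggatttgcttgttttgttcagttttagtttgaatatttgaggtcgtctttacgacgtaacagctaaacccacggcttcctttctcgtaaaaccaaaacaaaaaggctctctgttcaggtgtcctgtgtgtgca
Cd5: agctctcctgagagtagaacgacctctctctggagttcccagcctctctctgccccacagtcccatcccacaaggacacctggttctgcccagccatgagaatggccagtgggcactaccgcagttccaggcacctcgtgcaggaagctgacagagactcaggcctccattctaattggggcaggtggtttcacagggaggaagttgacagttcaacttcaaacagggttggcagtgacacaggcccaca
Havcr2 held 1 AP-1 match, beginning 200 bases before the start, Ctla4 held 1 NFAT match, beginning 144 bases before it, and Cd5 held no match to any of the 4 motifs. Among all 32851 windows of this length in the RefSeq table, 55.6% held the NFAT core, 6.75% the AP-1, 7.02% the STAT and 15.2% the T-box motif. Of the 10 genes, 9 were matched in that table. Among the 6 others matched, Cd96 held the most NFAT cores (4, the nearest beginning 18 bases before the start), Pdcd1 and Tigit held 2 each, and Cd274 held 1. STAT matches lay before Cd96, and T-box matches before Pdcd1, Btla and Cd96. Cd160 had 2 windows: the one at the end of its annotated span (chr3:96829352-96829601) held no match, and the one at a second start (chr3:96814522-96814771) held 1 NFAT, 1 STAT and 1 T-box match. These matches describe letters only, and an absent match says nothing of the factor.

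Of the 10 genes, 3 rose in Stim1KO Stat3C, none fell and 7 did not pass the test (limma, adjusted p under 0.05 over 11947 genes). Over all genes tested, 8.62% were called higher, 4.96% lower and 13.6% in either direction. All 10 checkpoint genes were above the filter on low values, and at an unadjusted p below 0.05 Btla alone was lower. On recovered reads edgeR called the same 3 genes higher and none lower (7.91% and 4.7% of all genes, 12.6% together), and DESeq2 called them higher and Btla lower (10.4% and 8.4%, 18.8% together). The genes that rose were Havcr2, Ctla4 and Cd5, and they were also the only 3 of the 10 whose values did not overlap between the groups, against 35.6% of all genes tested (19.2% with Stim1KO Stat3C higher). The median log2 difference was 0.35 over the 10 genes and -0.0011 over all genes tested, and 8 of the 10 differences were above 0.

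**Figure D1:**
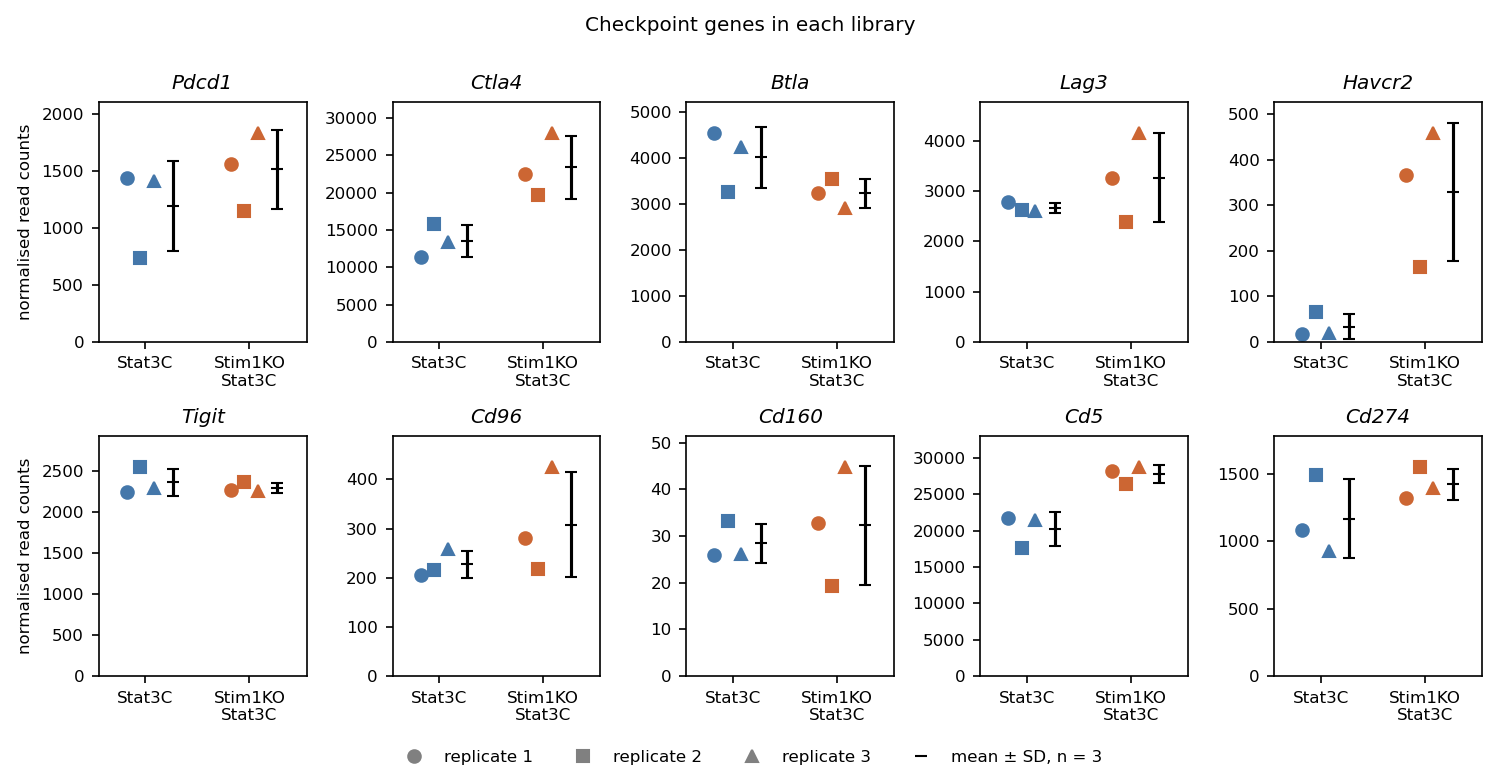
Normalised read counts (vertical axes, each from 0) of the 10 checkpoint genes in the 3 Stat3C (blue) and 3 Stim1KO Stat3C (orange) libraries; symbols mark replicates and the black bars the mean ± SD (n = 3). Havcr2, Ctla4 and Cd5 are the panels in which all orange points lie above all blue points.

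Havcr2 (chr11:46454935-46481255, plus strand, GRCm38, as are the positions that follow) encodes TIM-3, a receptor of interferon-gamma-producing and of chronically stimulated T cells. It stood at 16.9, 65.0 and 18.4 normalised counts in Stat3C replicates 1, 2 and 3 and at 366, 163 and 459 in Stim1KO Stat3C replicates 1, 2 and 3. All Stim1KO Stat3C values lay above all Stat3C values, and within Stat3C replicate 2 was the highest by far. The mean rose 9.85-fold, from 33.4 ± 27.3 to 329 ± 151 (SD, n = 3), a log2 difference of 3.41 (SE 0.55, 95% interval 2.14 to 4.69, adjusted p = 0.00762). Only 47 of the 11947 genes tested had a larger difference in either direction. The Stat3C values rested on 39, 129 and 19 reads, so this group was measured with less precision than Stim1KO Stat3C, with 152 to 461 reads. Without Stat3C replicate 2 the difference was 4.02 (adjusted p = 9.33e-05). Of 7 myeloid genes 3 were tested. H2-Aa was called lower and none higher, where 4.96% of all genes tested were called lower and 8.62% higher. Itgam (means 31.7 in Stat3C and 8.13 in Stim1KO Stat3C) and Cd14 (20.1 and 2.98) passed the filter on low values only through Stat3C. The summed level of the 7 was highest in Stat3C replicate 2, as Havcr2 was within that group. In Stim1KO Stat3C, Csf1r and Emr1 (now Adgre1) were listed at 0 in all 3 libraries and Lyz2 in all but replicate 2 (2.15), while Cd14 stood at 2.74 to 3.22 and Itgam at 2.99 to 11.8. Itgax, also a myeloid gene but below the filter on low values, was 1.30, 8.56 and 0.969 across Stat3C libraries, against 6.85, 6.44 and 33.8 with Stim1 deleted, highest in the replicate where Havcr2 was highest. The part of myeloid cells in the Havcr2 difference was not tested.

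Ctla4, on the plus strand, encodes CTLA-4, the high-affinity competitor of CD28 for CD80 and CD86. Its values, here and below in the order of replicates 1, 2 and 3, were 11396, 15754 and 13398 with Stim1 intact, and 22511, 19724 and 28013 in Stim1KO Stat3C. The lowest Stim1KO Stat3C library lay above the highest Stat3C library, and the spread within each group was of similar relative size. The mean rose 1.73-fold, from 13516 ± 2181 to 23416 ± 4218 (log2 0.79, SE 0.15, 95% interval 0.45 to 1.13, adjusted p = 0.0126). Without Stat3C replicate 2 the log2 difference was 0.91 (adjusted p = 0.000898).

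Genes that mark regulatory T cells moved with Ctla4. All 6 measured (Foxp3, Ikzf2, Il2ra, Lrrc32, Nrp1 and Tnfrsf18) rose, where 8.62% of all genes tested were called higher. The number called was 5 to 6 with 1 library left out, 5 without a variance trend and 2 in the libraries with low Xist alone. The summed level of the 6 was 41202 to 43088 in Stat3C and 63743 to 65395 in Stim1KO Stat3C. Most of it was Il2ra (36207 to 37527 in Stat3C, 54652 to 55161 in Stim1KO Stat3C). Foxp3 stood at 1139 to 1365 in Stat3C and 2152 to 2722 in Stim1KO Stat3C. Tigit, another gene of regulatory T cells, did not share this pattern, as given below. In bulk RNA, more cells of a type and more RNA per cell cannot be told apart, and the part of regulatory T cells in the level of Ctla4 was not tested.

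Cd5 (chr19:10717116-10739002, minus strand) encodes a scavenger-type receptor that is present on all T cells, restrains T cell receptor signals and is known to scale with their strength. It stood at 21745, 17603 and 21417 across Stat3C libraries, against 28185, 26448 and 28763 with Stim1 deleted. The groups did not overlap, and Stat3C replicate 2 was the lowest of the 6. The mean rose 1.37-fold, from 20255 ± 2302 to 27798.5 ± 1205 (log2 0.46, SE 0.08, 95% interval 0.27 to 0.66, adjusted p = 0.0123). Without Stat3C replicate 2 the log2 difference was 0.36 (adjusted p = 0.00173). General T cell genes moved the same way: of 7 measured, 5 rose (Cd3d, Cd3e, Cd3g, Cd2 and Thy1), none fell, and their median log2 difference was 0.30. Over all genes tested, 8.62% were called higher and 4.96% lower. The number of T cell genes called higher was 1 without Stim1KO Stat3C replicate 1 and 2 without Stat3C replicate 1 or 3. It was 3 without Stim1KO Stat3C replicate 3, 4 without Stim1KO Stat3C replicate 2 and 6 without Stat3C replicate 2. Without a variance trend it was 1, and in the libraries with low Xist alone it was 0. Genes of B cells and CD8 T cells were lower in Stim1KO Stat3C, summing to 32.2 to 63.0 against 134 to 381 for 6 B cell genes and to 111 to 159 against 277 to 453 for Cd8a and Cd8b1. Their part in the Cd5 difference was not tested.

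The calls of the 3 genes changed with fewer libraries. Ctla4 and Cd5 missed the threshold without Stim1KO Stat3C replicate 1 (adjusted p = 0.0549 and 0.0564), where only Havcr2 was still called (0.0473). In the 4 libraries with low Xist alone none of the 10 was called, with log2 differences of 2.84 for Havcr2, 0.65 for Ctla4 and 0.48 for Cd5. Between the libraries with high Xist, 1 per group and hence without a test, they were 4.57, 1.06 and 0.43.

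**Figure D2:**
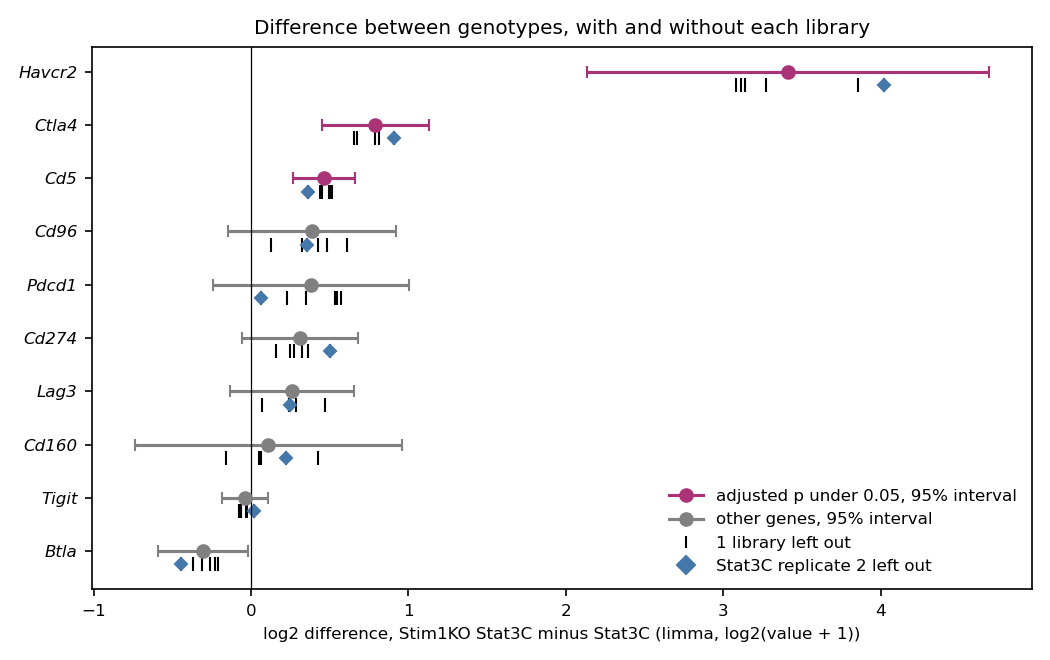
Log2 difference between the genotypes (horizontal axis) for each checkpoint gene, with its 95% interval from limma; purple marks genes past the threshold, black ticks the difference with 1 library left out and blue diamonds that without Stat3C replicate 2. Havcr2 lies far to the right at 3.41, and the diamonds of Pdcd1, Cd274 and Btla sit at 0.06, 0.50 and -0.45.

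PD-1, encoded by Pdcd1 (chr1:94038305-94052553, minus strand), and its ligand PD-L1, encoded by Cd274 (chr19:29367455-29388095, plus strand), form the best known checkpoint pair. Pdcd1 stood at 1433, 732 and 1409.9 with Stim1 intact, and 1558, 1146 and 1832 in Stim1KO Stat3C. The groups overlapped, and replicate 2 was the lowest library in each. The means were 1192 ± 398 and 1512 ± 345 (log2 0.38, SE 0.27, 95% interval -0.24 to 1.0, adjusted p = 0.37). Without Stat3C replicate 2 the difference was 0.06 (adjusted p = 0.807), so the positive difference rested on the low value of that library.

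Cd274 stood at 1080.1, 1494 and 926 across Stat3C libraries, against 1323, 1548 and 1394 with Stim1 deleted. Only Stat3C replicate 2 reached into the range of the other group. The means were 1167 ± 293 and 1422 ± 115 (log2 0.31, SE 0.16, 95% interval -0.06 to 0.68, adjusted p = 0.226). Without Stat3C replicate 2, Cd274 was called higher (log2 0.50, adjusted p = 0.00436), in a fit that called 14.3% of all genes higher and 24.3% in all. Its level was highest in Stat3C in the library with the most myeloid RNA, and the part of those cells was not tested.

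BTLA and CD160, encoded by Btla (chr16:45224315-45257670, plus strand) and Cd160 (chr3:96798763-96829351, minus strand), both bind the herpesvirus entry mediator HVEM. Btla was 4553, 3275 and 4241 with Stim1 intact, and 3248, 3542 and 2916 in Stim1KO Stat3C. Replicate 2 of Stat3C fell among the Stim1KO Stat3C values, and the other Stat3C libraries lay above them. The means were 4023 ± 667 and 3235 ± 313 (log2 -0.30, SE 0.12, 95% interval -0.59 to -0.02, adjusted p = 0.142). Btla was called lower without Stat3C replicate 2 (log2 -0.45, adjusted p = 0.00387), where 9.98% of all genes were called lower, and by DESeq2 on the recovered reads (-0.33, adjusted p = 0.0443), though not by edgeR (adjusted p = 0.144). Btla is also a gene of B cells, whose markers were lower in Stim1KO Stat3C. The part of B cells in the Btla values was not tested.

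Cd160 had the lowest mean of the genes in each group, at 26.0, 33.2 and 26.2 across Stat3C libraries, against 32.9, 19.3 and 44.8 with Stim1 deleted. The Stim1KO Stat3C values spanned the whole range of Stat3C. The values of all 6 libraries rested on 18 to 66 reads each, and the interval of the log2 difference, -0.74 to 0.96, leaves changes of either sign within reach (means 28.5 ± 4.14 and 32.3 ± 12.7, log2 0.11, SE 0.37, adjusted p = 0.862). The exons of Cd160 overlap those of Pdzk1 on the opposite strand, which had a mean of 4.95, and no source used here states whether counting used the strand.

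LAG-3, encoded by Lag3 (chr6:124904361-124911705, minus strand), binds MHC class II and is related to CD4. Lag3 stood at 2769.8, 2612 and 2602 with Stim1 intact, and 3263, 2379.6 and 4153 in Stim1KO Stat3C. Stat3C was tightly grouped (coefficient of variation 3.54%) whereas Stim1KO Stat3C was spread widely (27.2%) and enclosed all Stat3C values. The means were 2661 ± 94.1 and 3265 ± 887 (log2 0.26, SE 0.17, 95% interval -0.14 to 0.65, adjusted p = 0.339).

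TIGIT and CD96, encoded by Tigit (chr16:43648867-43664146, minus strand) and Cd96 (chr16:46035657-46120251, minus strand), belong to the receptors of nectins and the poliovirus receptor, for which they compete with the activating receptor CD226. Tigit had the narrowest spread of the 10 over all 6 libraries (highest over lowest), at 2249, 2548 and 2289.7 across Stat3C libraries, against 2265, 2365 and 2252 with Stim1 deleted. Its values overlapped fully, with means of 2362 ± 162 and 2294 ± 61.6. The log2 difference was -0.04 (SE 0.06, adjusted p = 0.7) and its 95% interval of -0.19 to 0.11 is the narrowest of the 10. Cd96 stood at 206, 217 and 259 with Stim1 intact, and 281, 217 and 425 in Stim1KO Stat3C. Stim1KO Stat3C replicate 2 lay within Stat3C, and the other Stim1KO Stat3C libraries lay above it (means 227 ± 27.9 and 308 ± 107, log2 0.39, SE 0.23, 95% interval -0.14 to 0.92, adjusted p = 0.291).

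For 2 receptors the ratio to the activating rival was taken within each library. The ratio of Ctla4 to Cd28 was 2.01, 3.05 and 2.71 across Stat3C libraries, against 3.39, 2.90 and 4.70 with Stim1 deleted. These ranges overlapped, as Cd28 also rose (5261 ± 371 to 6469 ± 449, log2 0.30, adjusted p = 0.032), and the log2 ratio differed by 0.49 (exact permutation test, two-sided, p = 0.2, with 0.1 the smallest possible). The ratio of Tigit to Cd226 was 3.65, 6.07 and 3.73 with Stim1 intact, and 5.35, 6.35 and 5.52 in Stim1KO Stat3C. The log2 ratio differed by 0.39 (exact permutation test, two-sided, p = 0.3), while Cd226 itself stood at 550 ± 113 and 401 ± 25.9 (log2 -0.43, adjusted p = 0.103). Cd226 was called lower in 2 of 21 alternative settings. Adjusted over the pair of ratios by the Benjamini-Hochberg method, both exact permutation p-values were 0.3.

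Per kilobase of annotated exon, the 10 genes covered a wide range of levels and kept the same order of group means in both genotypes. Ctla4 was highest (5801 normalised counts per kilobase in Stat3C and 10049.8 in Stim1KO Stat3C), followed by Cd5 (4110.2 and 5641), Tigit (2570.4 and 2496), Lag3 (1262 and 1548), Btla (1185 and 953), Pdcd1 (617 and 783), Cd274 (322 and 393), Cd96 (104 and 141), Havcr2 (12.3 and 121) and Cd160 (10.8 and 12.2). In Stat3C the libraries of neighbours in this order overlapped for Lag3 with Btla, Pdcd1 with Cd274 and Havcr2 with Cd160. In Stim1KO Stat3C they overlapped for Btla with Pdcd1 and for Cd96 with Havcr2. Havcr2 thus lay at the level of Cd160 in Stat3C and at that of Cd96 in Stim1KO Stat3C.

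Within a genotype the genes varied in both directions relative to each other. In Stim1KO Stat3C replicate 2 was lowest and replicate 3 highest for 7 of the 10 genes (Pdcd1, Ctla4, Lag3, Havcr2, Cd96, Cd160 and Cd5), an order seen in 14.7% of all genes tested. Btla and Tigit had the reverse order and Cd274 was highest in replicate 2. After removal of the group means, 25 of the 45 pairs of genes had a Pearson r above 0 over the 6 libraries. Of the 45, 8 pairs had r above 0.8 and 6 had r below -0.8, the strongest being Tigit against Cd5 (r = -0.997). Lag3 varied with Cd160 (r = 0.921) and Cd96 (r = 0.886), Pdcd1 with Cd5 (r = 0.978), and Btla against Havcr2 (r = -0.964). These are descriptions over 6 libraries that share Stat3C replicate 2.

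**Figure D3:**
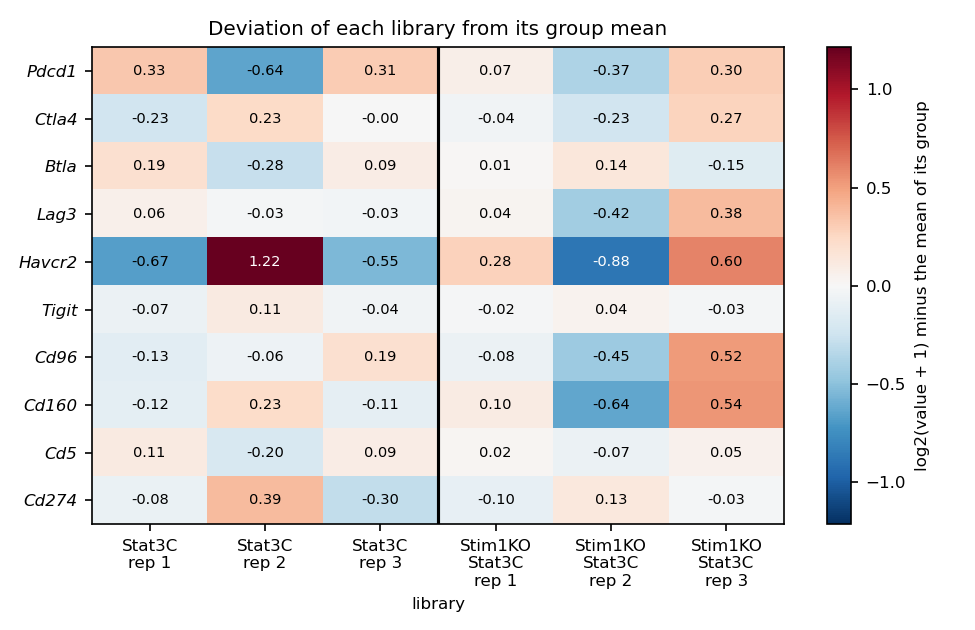
Deviation of each library (columns) from the mean of its group, on the log2(value + 1) scale, for the 10 checkpoint genes (rows); red is above and blue below the group mean. Replicate 2 of Stim1KO Stat3C is blue and replicate 3 red for Havcr2 (-0.88 and 0.60), Cd160, Cd96, Lag3, Pdcd1 and Ctla4.

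The genes outside the set with the most similar pattern, by Pearson r of log2(value + 1) over the 6 libraries among 10242 genes with a mean of at least 50, were as follows. For Havcr2 it was Tnfrsf18, which encodes the costimulatory receptor GITR (r = 0.998), for Ctla4 the myosin gene Myo1e (r = 0.996) and for Cd5 Rgs1, a regulator of G protein signalling (r = 0.997). Pearson r takes no account of size, and the log2 differences within these pairs were unlike. They were 3.41 for Havcr2 and 0.40 for Tnfrsf18, 0.79 for Ctla4 and 1.16 for Myo1e, and 0.46 for Cd5 and 1.26 for Rgs1. For the 7 other genes it was Mmd for Pdcd1 (r = 0.986), Uspl1 for Btla (r = 0.992), Thumpd2 for Lag3 (r = 0.983), Tbc1d24 for Tigit (r = 0.996), Nit1 for Cd96 (r = 0.975), Nsun3 for Cd160 (r = 0.974) and Anks1 for Cd274 (r = 0.994). A search over so many genes and 6 libraries finds high values readily. As many as 286 genes exceeded r = 0.95 with Havcr2.

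Of 15 ligands and binding partners of the receptors, 12 were tested, with a median log2 difference of -0.17. None passed the test with limma or edgeR, where 13.6% and 12.6% of all genes tested were called. With 12 genes, a count of 0 does not set the list apart from these shares. At an unadjusted p below 0.05, Lgals3, whose galectin binds LAG-3, was higher and Cd72 lower. DESeq2 called Lgals3 higher, as it did 10.4% of all genes tested. Lgals3 stood at 157 ± 41.0 and 365 ± 171 (log2 1.14, adjusted p = 0.059). The PD-L2 gene Pdcd1lg2 (609 ± 131 and 770 ± 88.6) and the TIGIT ligand gene Pvr (579 ± 12.5 and 569 ± 8.26) overlapped between the groups. So did the CTLA-4 ligand genes Cd80 (188 ± 3.49 and 217 ± 46.7) and Cd86 (77.0 ± 13.1 and 66.0 ± 13.7). The values of Lgals3 (higher in Stim1KO Stat3C) and Lgals9 (lower) did not overlap, as was so for 35.6% of all genes tested. The TIM-3 ligand gene Lgals9 was 1896, 5904 and 1874 across Stat3C libraries, against 1491, 1685 and 1712 with Stim1 deleted (log2 -0.76, adjusted p = 0.227). Its high Stat3C value was in replicate 2, the library with the most myeloid RNA. Hmgb1, whose product also binds TIM-3, stood at 12411 ± 511 and 11413 ± 786.

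Among 6 activating receptors and partners, Cd28, Icos and Cd2 rose and none fell, against 8.62% higher and 4.96% lower over all genes tested, with a median log2 difference of 0.45. Only 1 of the 6 was called higher without Stat3C replicate 3, without Stim1KO Stat3C replicate 1 or 2, or without a variance trend, and 2 without Stat3C replicate 1. DESeq2, and limma without Stat3C replicate 2, each called 1 of the 6 lower (8.4% and 9.98% of all genes). Cd28 lost its call in 5 of 21 alternative settings. Icos, a costimulator of the CD28 family that lies close to Ctla4 on chromosome 1, went from 8272 ± 2581 to 14962 ± 2100.3 (log2 0.89, adjusted p = 0.0236), a call lost in 8 of 21 alternative settings. Cd2, an adhesion receptor of T cells, went from 7266 ± 620.3 to 11325 ± 191 (log2 0.64, adjusted p = 0.00165).

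Of 14 other inhibitory receptors and partners tested, 7 rose, 1 fell and 6 did not pass, where 8.62% of all genes tested rose and 4.96% fell, with a median log2 difference of 1.09. Nt5e, which encodes the adenosine-producing ectoenzyme CD73, went from 152 ± 25.9 to 371 ± 54.8 (log2 1.28, adjusted p = 0.00317). Cd6, a relative of Cd5, went from 17749 ± 1741 to 24686 ± 1109.9 (log2 0.48, adjusted p = 0.00735), and Cd200r1, the receptor for CD200, from 111 ± 11.1 to 267 ± 68.5 (log2 1.23, adjusted p = 0.00761). Klrg1, an inhibitory lectin of effector cells, was nearly absent in Stat3C (1.30, 0.504 and 0) and stood at 60.3, 36.5 and 30.8 in Stim1KO Stat3C (adjusted p = 0.00375). It rested on 3, 1 and 0 reads in Stat3C and passed the filter on low values only through Stim1KO Stat3C (means 0.601 and 42.5). Its log2 difference ranged from 3.04 to 5.89 over the alternative settings, so its size is poorly fixed. The member that fell was Cd200, the ligand of CD200R (6400.0 ± 1369 to 4199.9 ± 93.7, log2 -0.58, adjusted p = 0.0334). None of the 14 was called lower with voom, without a variance trend or in the libraries with low Xist alone. The same held with any 1 library other than Stat3C replicate 2 left out.

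Downstream of the receptors, 8 of 20 effector genes rose, Cblb fell and 11 did not pass, against 8.62% higher and 4.96% lower over all genes tested, with a median log2 difference of 0.17. Dok2, an adaptor that recruits a Ras inhibitor, rose from 1155 ± 133 to 2085 ± 118 (log2 0.86, adjusted p = 0.00165), and Rasa1, the Ras inhibitor itself, from 923 ± 26.5 to 1373.5 ± 80.7 (log2 0.57, adjusted p = 0.00237). Ubash3a, a phosphatase-like suppressor of T cell receptor signals, went from 726 ± 101 to 1347 ± 71.6 (log2 0.90) and the adaptor Lax1 from 164 ± 26.1 to 342 ± 32.8 (log2 1.07). Cblb, a ubiquitin ligase that restrains costimulation, fell from 3461 ± 313 to 2332 ± 163 (log2 -0.57, adjusted p = 0.00454).

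Of 14 genes for surface traffic and turnover, Lrba and Cmtm6 rose and 12 did not pass, so 14.3% were called, near the 13.6% of all genes tested. LRBA spares CTLA-4 from lysosomal breakdown, and its gene went from 2178 ± 217 to 3314 ± 396 (log2 0.60, adjusted p = 0.00971). CMTM6 keeps PD-L1 at the surface, and its gene went from 2839 ± 304 to 3751 ± 326 (log2 0.40, adjusted p = 0.0268), a call lost in 6 of 21 alternative settings. Protein levels were not measured.

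Transcription factors and receptors known to act on checkpoint genes changed both ways: of 22, 9 rose, 4 fell and 9 did not pass (over all genes tested, 8.62% rose and 4.96% fell), with a median log2 difference of 0.43. Maf (363 ± 31.0 to 1789 ± 293, log2 2.29) and Prdm1 (535 ± 169 to 2385 ± 239, log2 2.21), which act together on a co-inhibitory program in T cells, rose. The others that rose were Eomes (log2 3.15), Nfatc2 (0.96), Foxp3 (0.91), Id2 (0.87), Tbx21 (0.61), Il27ra (0.58) and Nfil3 (0.53). Tcf7, the TCF1 gene of naive and memory-like cells, fell (8653 ± 578 to 4501 ± 483, log2 -0.95), as did Nr4a1 (2833 ± 196 to 1342 ± 101, log2 -1.08), Nr4a2 (log2 -0.57) and Bhlhe40 (log2 -0.48).

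**Figure D4:**
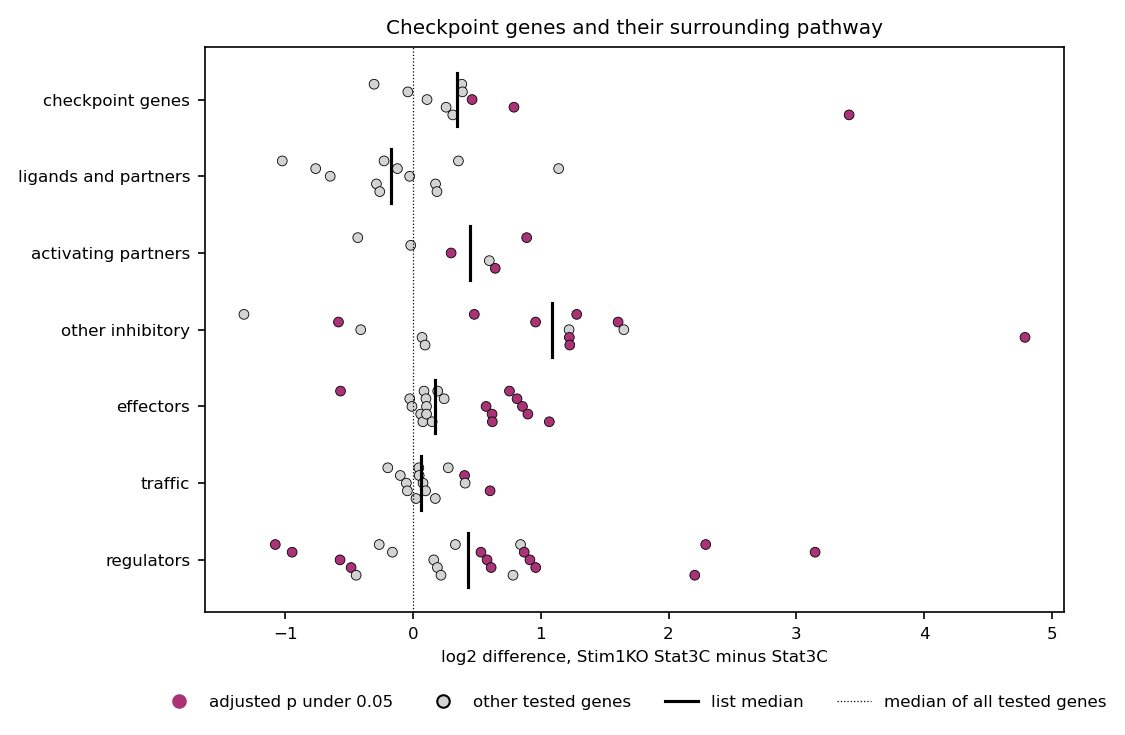
Log2 difference between the genotypes (horizontal axis) of every tested gene in the checkpoint set and the 6 surrounding lists (rows); purple points passed the threshold, black bars are list medians and the dotted line is the median of all genes tested. The 12 ligands and partners hold no purple point, where 13.6% of all genes tested passed the threshold. The other inhibitory receptors have the highest median, 1.09.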

How the data were processed

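The 6 libraries of poly(A) RNA, 3 per genotype, were stranded and began from 100 ng, per the labels' protocols. Tools listed without roles in the submitters' processing notes are DESeq2 1.22.2, HTSeq 0.11.1 and TopHat2 2.1.1, with the build mm10. No source used here states the gene models, filters or strand setting of the counting. The deposited table holds a normalised signal, in which the authors scaled each library's counts by 1 factor: 100% of values above 0 in every column were whole multiples (within 0.01) of 1 step, which gave back whole reads. In Stim1KO Stat3C replicate 3 the step is 0.995, too close to 1 for an automatic test, so edgeR was also run without it. In 27 rows the name had become a date. They held at most 0.217% of a library and were left out. A value of 0 allows up to 3 reads (1.30 to 4.11 normalised counts), counting error only.

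The test was limma 3.58.1 (R 4.3.3) applied to log2(value + 1) of all 6 libraries with a variance trend and no covariate, two-sided, for 11947 genes with a mean of at least 10, with Benjamini-Hochberg adjustment over them. Alternatives used edgeR 4.0.16, DESeq2 1.42.0 and voom on recovered reads, other pseudocounts, filters and scalings, Xist as a covariate, and each library left out. EdgeR without Stim1KO Stat3C replicate 3 and the low-Xist libraries alone were added after the data were seen. On data simulated for this comparison (11833 genes), the test found 30% of 50 genes changed by a log2 of 0.5, 80% of those changed by 1 and 98% of those changed by 2, with 2 false calls among 156. All changed genes had a mean above 50, and noise was drawn independently for each library, with no outlying library such as Stat3C replicate 2. These shares and false calls therefore do not carry over to genes as low as Cd160 or to a group that holds such a library. No pair of libraries agreed within sampling noise (chi-square per degree of freedom 8.41 at least).

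The members and lists were chosen with earlier results of these data known. Of 93 list members outside the checkpoint set all 93 were found, some by an older symbol, and marker genes of other cells were taken from further lists, some of whose genes are not reported here. Named genes are the 10 members, Stim1, Stat3, Cd28 and Cd226, up to 4 called members per list by smallest adjusted p (or the 2 most abundant where none was called), and the nearest gene of each member. Pdcd1lg2, Cd80, Cd86, Pvr, Cd200, Cblb, Nr4a2, Bhlhe40, Lgals3, Cd72, Pdzk1 and the marker genes named fall outside this rule and were picked with their values in view. The same is true of Eomes, Nfatc2, Id2, Tbx21, Il27ra and Nfil3. Stat3 stood at 21254 ± 496 and 20945 ± 445. Positions and exon lengths are from GENCODE mouse release M21 (GRCm38) and promoters from RefSeq. Replicates were numbered in accession order.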

Additional observations from a re-analysis of the deposited data

How the results depend on the processing

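The rises of Havcr2, Ctla4 and Cd5 kept their direction in all 21 alternative settings and missed the threshold in 2, 3 and 4 of them. The number of checkpoint genes called higher was 1 to 4 with 1 library left out, and 1 without a variance trend and with edgeR without Stim1KO Stat3C replicate 3, and 0 in the 4 libraries with low Xist alone. The number called lower was 0 to 1 with 1 library left out (1, Btla, without Stat3C replicate 2) and 1 with DESeq2. The count over all genes was 617 to 2899 with 1 library left out, 827 without a variance trend, 922 with edgeR without Stim1KO Stat3C replicate 3 and 82 in the low-Xist libraries, against 1623. Fewer libraries enter the last settings, and the cause of the other shifts was not tested.

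Cd160 changed sign to -0.00885 with quantile normalization, -0.14 with edgeR without Stim1KO Stat3C replicate 3 and -0.21 in the low-Xist libraries, and ranged from -0.16 to 0.43 with 1 library left out. Its neighbour in pattern Nsun3 did so too (-0.017, -0.12 and -0.15, and -0.11 to 0.23). Nsun3 was picked for its likeness to Cd160 in these same libraries, so this is not a separate observation. Tigit ranged from -0.075 to 0.015 and Tbc1d24 from -0.30 to 0.053 with 1 library left out, positive without Stat3C replicate 2. Tbc1d24 was likewise picked for its likeness to Tigit. The log2 ratio differences ranged from 0.30 to 0.65 for Ctla4 to Cd28 and from 0.26 to 0.63 for Tigit to Cd226. With 1 library left out, 4 to 9 other inhibitory receptors, 5 to 9 effectors and 7 to 12 regulators were called higher. The upper ends came without Stat3C replicate 2, where 14.3% of all genes tested were called higher. The lower ends came from fits that called 617 to 775 of the 11947 genes in either direction. No paired analysis was possible because the labels give no replicate number that the groups share.

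With 3 libraries per group, the 95% intervals of the 7 genes that did not pass reach from -0.74 to 1.0, so these genes are not shown to be unchanged.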
